A study of Mus musculus with 384 samples.

Results

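Liver RNA of male and female mice that had eaten standard chow was compared, gene by gene on the autosomes. The mice were the 48 males and 50 females labelled with the chow diet, 98 of the 192 mice of the study, and each mouse was 1 column of a deposited table of expression values. All were wild-type Diversity Outbred mice (J:DO), an outbred stock bred from several inbred founder strains, so no animal was a genetic copy of another. They were 26 weeks old, had been given chow holding 6% fat by weight since weaning, and carried an outbreeding generation label: 25 females and 23 males were G11L1, and 25 females and 25 males were G11L2. A coat colour label was uneven between the sexes: 13 females and 5 males were black, and 5 females and 9 males white. The others were agouti (31 females and 33 males) or agouti blaze (1 of each sex). The other 94 mice, 46 males and 48 females of the same stock and age, had eaten a high fat diet (22% fat by weight) and serve below only to show where the sex difference on chow was another one there. The values are the authors' upper-quartile normalized signal, which carries no further unit. They were compared as log2(signal + 0.0629), and a difference is male minus female on that scale, ± its standard error, so that a positive value means a higher level in males.

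The mouse liver is one of the most sex-dependent organs outside the reproductive tract. Its hepatocytes read the pattern in which the pituitary releases growth hormone, in separated pulses in males and almost continuously in females, through the growth hormone receptor, the kinase JAK2 and the transcription factor STAT5b. The male pattern keeps up genes for major urinary proteins, which carry pheromones into the urine, and a set of steroid-metabolizing enzymes. The female pattern keeps up another set of cytochromes P450 and most sulfotransferases, with the repressor BCL6 more abundant in male liver and the homeodomain protein CUX2 nearly restricted to female liver.

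The libraries fitted their labels with 1 exception. Estimated depth was 9.987 to 17.92 M reads (megareads) in males (median 14.63) and 11.95 to 17.07 M in females (median 14.32), and 16076 to 17691 genes had a signal above 0 in a mouse. Alb, serum albumin, and Cyp2e1, a cytochrome of hepatocytes around the central vein, had a signal of at least 8705 and 691 in every chow mouse. Xist, the long RNA by which females silence an X, was 0.428 to 2.47 in males and at least 126.5 in 49 females, while 1 female had 0.361. That mouse had a female level of the autosomal marker genes described next (Cyp4a12a 0.263, Hsd3b5 1.52, Cyp3a41a 511 and Sult2a1 90.3). The summed signal of pancreas markers was over 100 times that of the median chow mouse in 2 males, and over 10 times in 4 males, these 2 included, and 2 females. The 10 mice least alike the others of their sex were all males. With all mice 455 autosomal genes were at least 2-fold apart. The count was 457 without the female of low Xist, 463 without the 2 males, 475 without the 6 mice and 473 without the 10 males.

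The Cyp3a cluster of chromosome 5 held genes that part the sexes in opposite directions, and their start-proximal sequences can be read side by side. Cyp3a enzymes are the chief oxidizers of steroids and drugs in liver. The lines give the 150 bases before the RefSeq start (GRCm38.p6, minus strand, 5′ to 3′). These are chr5:145720137-145720286 for Cyp3a41a, chr5:145584731-145584880 for Cyp3a41b, chr5:145805875-145806024 for Cyp3a44, chr5:145469724-145469873 for Cyp3a16, which were all higher in females, and chr5:145879855-145880004 for Cyp3a11, which was higher in males. Capitals mark ATCAAT, which is ATTGAT on the other strand, the core letters bound by the homeodomain proteins HNF6 and CUX2.

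Cyp3a41a: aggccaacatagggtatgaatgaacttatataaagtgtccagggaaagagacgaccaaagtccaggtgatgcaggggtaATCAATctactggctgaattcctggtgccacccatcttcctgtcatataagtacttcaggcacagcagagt

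Cyp3a41b: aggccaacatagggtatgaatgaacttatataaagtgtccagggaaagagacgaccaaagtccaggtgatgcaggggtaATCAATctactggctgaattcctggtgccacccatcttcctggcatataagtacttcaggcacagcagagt

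Cyp3a44: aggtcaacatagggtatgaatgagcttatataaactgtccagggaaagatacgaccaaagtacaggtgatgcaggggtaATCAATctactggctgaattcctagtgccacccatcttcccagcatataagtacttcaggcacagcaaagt

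Cyp3a16: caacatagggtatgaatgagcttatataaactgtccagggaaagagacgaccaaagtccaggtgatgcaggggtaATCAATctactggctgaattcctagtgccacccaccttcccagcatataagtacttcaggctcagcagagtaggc

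Cyp3a11: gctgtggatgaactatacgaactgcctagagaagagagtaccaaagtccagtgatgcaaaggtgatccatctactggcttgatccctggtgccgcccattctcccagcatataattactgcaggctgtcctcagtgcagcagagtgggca

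The capitals start 71 bases before the start in Cyp3a41a, Cyp3a41b and Cyp3a44 and 75 bases before it in Cyp3a16. ATTGAT was not found in the Cyp3a11 window on either strand. TTCNNNGAA, the core letters bound by STAT5, was found in none of the printed windows, female-high or male-high. Over the 250 bases before the start, Cyp3a41a was 99.6% identical to Cyp3a41b, 94.4% to Cyp3a44, 91.3% to Cyp3a16 and 72.9% to Cyp3a11. Among tested autosomal genes with a RefSeq promoter entry, 5.01% of 10412 held ATTGAT in those 250 bases on either strand. The share was 14.6% of 171 genes at least 2-fold higher in males and 11.8% of 153 genes at least 2-fold higher in females. TTCNNNGAA was in 7.47%, 8.77% and 7.19%. The median G and C content of the windows was 59.4%, 53.0% and 52.0% in that order, and its part in the shares was not tested. Many of the genes are neighbouring copies of each other, so the shares are a description. The motifs were counted separately, and a match is not evidence of binding.

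The 4 genes used as markers of male-type and female-type liver separated the sexes by 90.7-fold or more on this scale. Cyp4a12a (ENSMUSG00000066071, chr4:115299046-115332815, GRCm38) encodes the main fatty acid omega-hydroxylase of male mouse liver. Its signal was 93.6, 238 and 343 (lowest, median, highest) in males and 0.243, 0.604 and 49.8 in females. No female reached the lowest male, and the difference was 7.73 ± 0.25 (adjusted p = 1.24e-48, limma). Hsd3b5 (ENSMUSG00000038092, chr3:98618634-98630252), a male-type hydroxysteroid dehydrogenase that inactivates steroids, was at 0.265, 59.2 and 119.9 in males and 0.0256, 0.348 and 8.15 in females. Of the 48 males, 47 lay above every female, and the remaining male lay among the females. The difference was 6.50 ± 0.30 (adjusted p = 4.61e-37).

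In the other direction, Cyp3a41a (ENSMUSG00000075551, chr5:145694049-145720136) was at 0.332, 2.60 and 22.7 in males and 267, 763 and 1642 in females. This was the widest gap of any autosomal gene: the lowest female was 3.55 log2 units above the highest male, and the means differed by -8.00 ± 0.17 (adjusted p = 3.84e-64). Sult2a1 (ENSMUSG00000078798, chr7:13796246-13837409), which sulfonates bile acids and dehydroepiandrosterone, was at 0.0484, 0.318 and 25.7 in males and 12.5, 95.0 and 221 in females. A single male overlapped with the females, and the difference was -7.51 ± 0.24 (adjusted p = 3.75e-49). A share of the reads of Cyp3a41a and Cyp4a12a cannot be assigned to a single gene: 90.8% of the 100-base words of Cyp3a41a transcripts occur in Cyp3a41b, and 35.8% of those of Cyp4a12a in Cyp4a12b. The split within each pair is therefore uncertain, while both members of each pair differed in the same direction.

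**Figure D1:**
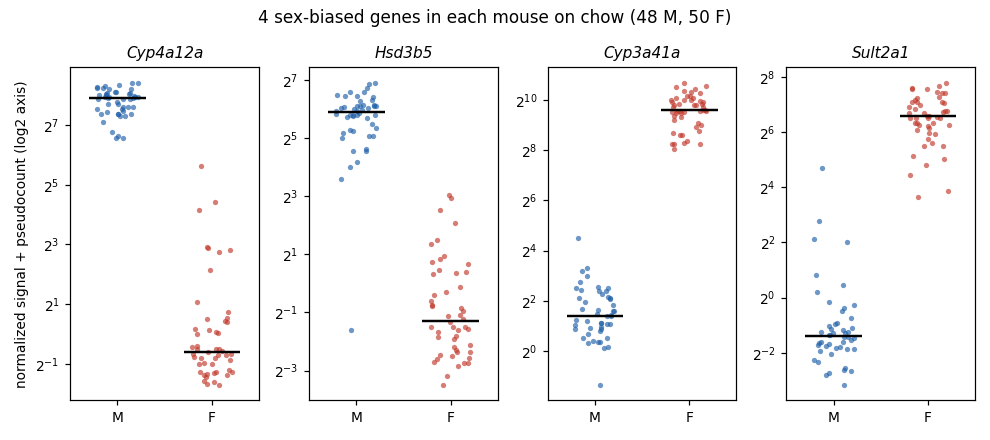
Signal of the 4 marker genes in each chow mouse (48 males, 50 females), on a log2 axis after adding the pseudocount; a point is a mouse and the bar is the median. For Cyp4a12a and Cyp3a41a the sexes do not overlap, and for Hsd3b5 a single male lies among the females.

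Most autosomal genes differed at least slightly. Of 13828 tested autosomal genes, 8914 (64.5%) passed an adjusted p under 0.05: 6270 (45.3%) were higher in males and 2644 (19.1%) were higher in females. Many of these differences were small: 4094 of the called genes (45.93%) were less than 1.2-fold apart. The balance of directions depended on scaling: the median difference of all autosomal genes was 0.106 in the deposited values, and after median-of-ratios rescaling it was -0.00567, with 3747 genes higher in males and 4096 in females. Large differences were near evenly split. There were 455 called genes at least 2-fold apart (3.29%), with 241 higher in males (1.74%) and 214 higher in females (1.55%). After rescaling these were 215 and 250. A difference of 10-fold or more was reached by 28 male-high and 35 female-high genes.

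**Figure D2:**
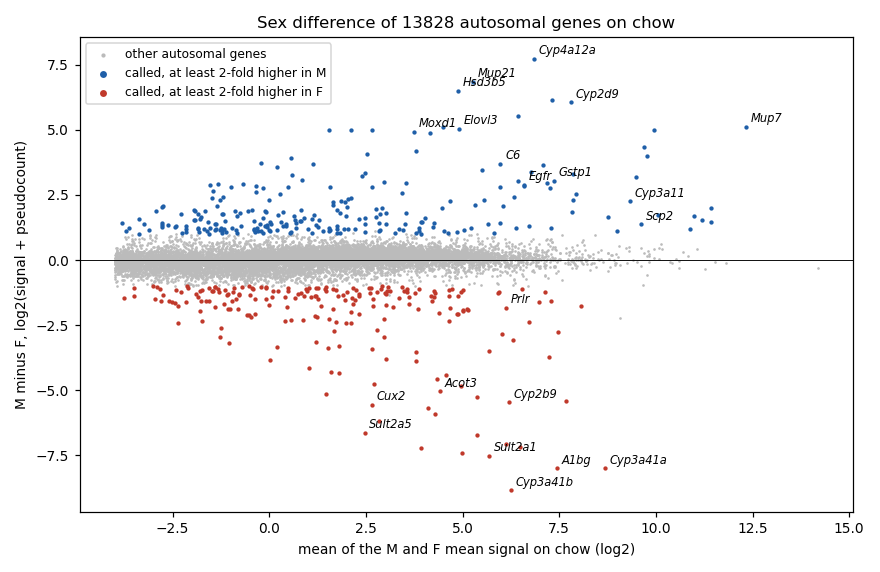
Difference between the sexes on chow (male minus female, log2 scale) against the log2 of the mean of the male and female mean signals. Each point is a tested autosomal gene, and named genes are labelled. The largest differences, Cyp3a41b and Cyp3a41a below and Cyp4a12a and Mup21 above, stand far outside the band in which most genes lie.

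The sexes did not overlap at all in 23 genes (0.166% of those tested). In 15 of them every male was above every female, and in 8 every female was above every male. In a further view that allows single exceptions, a random male exceeded a random female in at least 99% of pairs for 54 genes, and the reverse held for 33. After Cyp3a41a, the widest gap was that of Cyp2d9, a male-specific testosterone 16-alpha-hydroxylase, at 182, 421.5 and 697 in males and 0.970, 6.01 and 45.6 in females (6.06 ± 0.21, adjusted p = 5.11e-46). Sult2a5, a sulfotransferase of the Sult2a cluster, followed with 0, 0.0304 and 0.381 in males, 12 of which were listed at 0, and 1.45, 10.0 and 32.7 in females (-6.63 ± 0.15). Elovl3, which lengthens very long saturated fatty acids, had 8.47, 47.5 and 152 in males and 0.290, 1.45 and 3.47 in females (5.04 ± 0.17). Its female levels were low in every mouse.

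The other non-overlapping genes include some with modest but very even differences. Scp2, the sterol carrier protein that also holds a peroxisomal thiolase, was at 779, 1155 and 1505 in males and 265, 442 and 577 in females, a difference of only 1.37 ± 0.05 (adjusted p = 1.09e-44). Arsa, a lysosomal arylsulfatase, differed by 2.01 ± 0.08, Ces3a, a carboxylesterase, by 1.66 ± 0.08, Abcg2, an exporter of drugs and urate, by 1.63 ± 0.07, and Pard3b, a cell polarity protein, by 1.497 ± 0.07. Female-high genes of this kind were Rtn4, which shapes the endoplasmic reticulum (-1.58 ± 0.10), Fam126a (-1.45 ± 0.09) and Sybu, a kinesin adaptor (-2.94 ± 0.12). Rtn4 reached 19.7, 26.9 and 37.7 in females and 2.75, 10.2 and 18.3 in males. The lowest female was just above the highest male.

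Of 14 families whose share of the summed signal was compared, the pheromone carriers differed most in percentage points, while Cyp2b differed most as a ratio (7.95-fold). The summed signal itself was higher in males (median 256200, against 217600 in females). For an equal family signal a male therefore has a lower share. Major urinary protein genes took 11.44 ± 4.53% of the summed signal of a male (SD, range 3.51% to 22.6%) and 2.11 ± 1.15% of that of a female (0.223% to 5.55%), a 5.43-fold ratio (permutation test of the means, two-sided, p = 2e-05, the smallest that 1e+05 resamples give, adjusted over 14 families 2.8e-05). Of 20 tested members 19 were higher in males and all 19 were at least 2-fold apart, with a list median of 3.00. Among all genes 45.3% were higher in males, and 1.74% were at least 2-fold higher. None was higher in females, and after quantile normalization 18 remained called. Mup7 was at 2657, 9913 and 21118 in males and 49.6, 232 and 1298 in females and did not overlap (5.13 ± 0.19). Mup20, known as darcin, the urinary pheromone that attracts females, was at 26.8, 214 and 1302 in males and 0.781, 2.48 and 14.5 in females (6.15 ± 0.23), also without overlap. Mup21 differed by 6.83 ± 0.21, Mup1 by 4.33 ± 0.28 and Mup3 by 3.19 ± 0.24.

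Within males the Mup genes were far from uniform. Mup2 ran from 0.492, 3778 and 13179 in males, against 62.3, 763 and 2895 in females, so that some males were below every female, and its difference of 1.48 ± 0.49 (adjusted p = 0.00683) was no longer called after quantile normalization or in each generation label alone. Mup13 was at 1.46, 5.21 and 2273 in males and 0.0375, 1.34 and 8.58 in females. Mup genes are near copies of each other, with 75.5% of the words of Mup2, 76.1% of those of Mup7 and 83.6% of those of Mup13 found in another gene, so their family sum is firmer than any single member. Obp2a, another lipocalin that binds odorants, was at 0, 2.80 and 131 in males and 0, 0 and 0.0533 in females, 26 of which were listed at 0 (5.00 ± 0.36).

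Cytochromes P450 of families 1 to 4 split between the sexes. Of 63 tested members, 20 were higher in males and 25 in females, and at least 2-fold apart were 7 and 18 (71.43% called, median -0.01, against 64.5% and 0.106 over all genes). Their summed share of the signal was 2.93 ± 0.47% in males and 3.88 ± 0.41% in females (permutation p = 2e-05). Shares divide by the summed signal, which was higher in males as given above, so they are not differences of signal. Subfamilies leaned in different directions. Cyp2a took 0.130% in males and 0.456% in females, Cyp2b 0.0123% and 0.0981%, Cyp2c 0.729% and 1.11%, Cyp3a 0.518% and 0.796%, and Cyp2d 0.355% and 0.196% (permutation p = 2e-05 for each). The Cyp4a share did not pass the test (0.145% and 0.129%, p = 0.132).

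**Figure D3:**
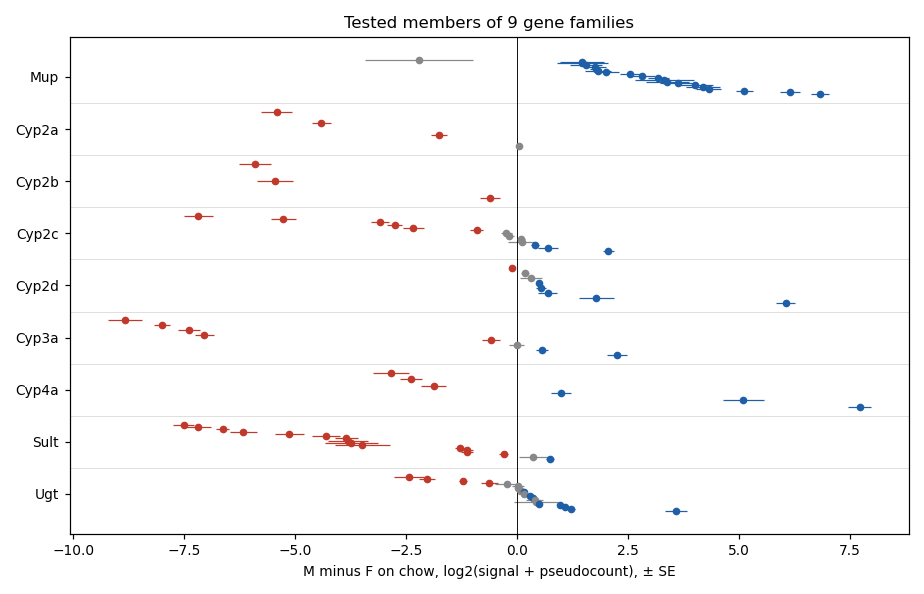
Difference between the sexes (male minus female, log2 scale, ± SE) for each tested gene of 9 families, grouped by family; points are coloured by the sex with the higher level and grey where the adjusted p was not under 0.05. Mup genes lie to the male side except 1 that was not called, most sulfotransferases to the female side, and Cyp2c, Cyp2d, Cyp3a, Cyp4a and Ugt hold members on both sides.

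In the Cyp3a subfamily 5 of 8 tested members were higher in females and 2 in males, against 19.1% and 45.3% of all genes. Cyp3a41b differed by -8.83 ± 0.39, Cyp3a16 by -7.39 ± 0.24 and Cyp3a44 by -7.05 ± 0.21, the last with 0.275, 0.659 and 4.04 in males and 11.2, 139 and 311 in females. Cyp3a11, the gene on the other side of the same cluster, was at 399.7, 977 and 1867 in males and 9.55, 219.7 and 1099 in females (2.25 ± 0.22, adjusted p = 1.74e-15). Cyp3a25 was higher in males too (0.56 ± 0.13), and Cyp3a13 had alike means (-0.00 ± 0.17, adjusted p = 0.986). On the log2 scale females covered a far wider range of Cyp3a11 than males did.

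Cyp2c genes lay on both sides as well. Cyp2c69 (-7.18 ± 0.33) and Cyp2c40 (-5.26 ± 0.28) were higher in females, as were Cyp2c39 (-3.08 ± 0.20), Cyp2c37 (-2.75 ± 0.17) and Cyp2c38 (-2.34 ± 0.23), all epoxygenases or hydroxylases of fatty acids and drugs by family. Cyp2c67 was higher in males (2.06 ± 0.13), with 48.5, 106 and 227 in males and 8.41, 23.4 and 72.6 in females. Cyp2c70, which makes the muricholic bile acids of mice, was only slightly higher in males (0.41 ± 0.08). Cyp2c29 did not pass the test (0.09 ± 0.09, adjusted p = 0.333) and was called higher in females after quantile normalization (-0.34). Of 13 tested Cyp2c genes 3 were higher in males and 6 in females, against 45.3% and 19.1% of all genes. After median-of-ratios rescaling these were 3 and 8.

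Cyp2a and Cyp2b genes of chromosome 7 were female-high. Cyp2a4, a steroid 15-alpha-hydroxylase, was at 0.740, 6.37 and 260.3 in males and 93.2, 382 and 680.4 in females (-5.41 ± 0.35), its near copy Cyp2a5 differed by -1.75 ± 0.18, and Cyp2a22 by -4.41 ± 0.22, whereas Cyp2a12 did not pass the test (0.05 ± 0.06, adjusted p = 0.512). Cyp2b9 (-5.45 ± 0.40) and Cyp2b13 (-5.90 ± 0.37) were far higher in females. Cyp2b10, the member most inducible by drugs through the nuclear receptor CAR, differed by only -0.60 ± 0.23 (adjusted p = 0.0181), a call lost in each generation label alone and without the 6 mice of high pancreas transcripts.

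Cyp2d and Cyp4a leaned the other way in their top members. Besides Cyp2d9, Cyp2d10 was higher in males (0.50 ± 0.05), while Cyp2d26 was marginally higher in females (-0.11 ± 0.05, adjusted p = 0.0419), a call lost in each generation label alone. Of 6 Cyp4a genes, 3 were higher in each sex, where 45.3% of all genes were higher in males and 19.1% in females. Cyp4a12b (5.11 ± 0.46) and Cyp4a32 (0.99 ± 0.23) were male-high, and Cyp4a10 (-2.39 ± 0.25), Cyp4a14 (-2.84 ± 0.41) and Cyp4a31 (-1.87 ± 0.29), which respond to the fatty acid receptor PPAR-alpha, were female-high. Among proteins that P450 enzymes need, Por, which passes electrons to all microsomal P450s, was higher in females (-0.88 ± 0.11, adjusted p = 1.11e-10), and so was Alas1, the first enzyme of haem synthesis (-0.62 ± 0.22, adjusted p = 0.0106), the latter not in G11L1 mice alone.

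Conjugating enzymes were most lopsided among the sulfotransferases. Of 16 tested, 14 were higher in females, 13 of them at least 2-fold, and 1 was higher in males (median -3.77, and the counts were the same under both rescalings). Over all genes 19.1% were higher in females and 45.3% in males. Beyond Sult2a1 and Sult2a5, Sult2a2 was at 0, 0.0653 and 0.363 in males and 0.0655, 23.5 and 91.1 in females (-7.20 ± 0.29), Sult2a3 differed by -6.16 ± 0.31 and Sult2a6 by -5.13 ± 0.32. Sult1e1, which inactivates estrogens, was at 0, 0.0520 and 1.45 in males and 0.0921, 2.70 and 30.4 in females (-4.30 ± 0.31). The male exception was Sult2a8 (0.76 ± 0.09). Sult3a1 was at 0.263, 2.23 and 366 in males and 8.50, 198 and 510.1 in females, so males fell on both sides of the lowest female, and the mean difference of -3.74 ± 0.60 sums up a wide male range.

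The other conjugating families held members of both directions. Of 19 UDP glucuronosyltransferases 8 were higher in males and 4 in females, and the share called, 63.16%, was near the 64.5% of all genes. Ugt2b38 (3.58 ± 0.24) and Ugt2b1 (1.23 ± 0.08), which add glucuronic acid to steroids and drugs, were male-high. Ugt2b37 (-2.42 ± 0.34), Ugt1a5 (-2.03 ± 0.18) and Ugt1a1, the enzyme of bilirubin conjugation (-1.22 ± 0.09), were female-high, and Ugt1a genes share exons. Of 24 glutathione S-transferases 7 were higher in males and 6 in females (54.17% called), which became 6 and 11 after either rescaling. Gstp1 had 94.4, 274 and 551 in males and 21.8, 30.5 and 51.0 in females without overlap (3.05 ± 0.12), Gstp2 differed by 2.11 ± 0.21, and Gstt3 was female-high (-1.89 ± 0.11).

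Flavin monooxygenases were higher in females in 4 of 5 cases, against 19.1% of all genes. Fmo5 was the male-high member (0.63 ± 0.08). Of 14 hydroxysteroid dehydrogenases 9 were higher in males and 2 in females, where 45.3% and 19.1% of all genes were. After Hsd3b5 the largest were Hsd3b2 (2.01 ± 0.14) and Hsd3b3 (1.17 ± 0.13). Aox3, a liver aldehyde oxidase, was male-high at 166, 384 and 752 against 34.5, 74.7 and 239 (2.31 ± 0.10), and Hao2, a peroxisomal hydroxyacid oxidase, female-high at 0.117, 0.376 and 13.3 against 9.84, 30.6 and 65.7 (-5.69 ± 0.23).

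Transporters of the basolateral and canalicular membranes also split. Of 22 organic anion and cation transporters 7 were higher in males and 9 in females (72.73% called, against 64.5% of all genes). Slco1a1 was at 107, 243 and 401.7 in males and 0.765, 42.9 and 142 in females (2.94 ± 0.27), while its neighbour Slco1a4 was female-high (-1.96 ± 0.15). In the chromosome 19 cluster Slc22a26 (-4.82 ± 0.34) and Slc22a27 (-4.77 ± 0.20) were female-high and Slc22a28 male-high (4.08 ± 0.36). Among exporters, Abcg2 was male-high as given above, and Abcb1a, a P-glycoprotein (-2.71 ± 0.14), and Abcc4, which exports bile acids and nucleotides back to blood (-2.13 ± 0.13), were female-high.

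Among secreted proteins of defence, the complement genes that differed most were male-high, while acute phase and hepatic plasma proteins differed the other way at the 2-fold limit. Of 26 tested genes of the latter list 12 were higher in males and 8 in females, and at least 2-fold apart were 0 and 5. The share called was 76.92%, against 64.5% of all genes. The lean of the 12 and 8 toward males was reversed by scaling. Median-of-ratios values gave 6 and 10, and quantile-normalized values 2 and 10. Several genes of the terminal complement components that form the membrane attack pore, though not all, were much higher in males. C8a was at 168, 253 and 379.6 in males and 9.84, 39.4 and 97.8 in females with no overlap (2.77 ± 0.12), C8b differed by 2.80 ± 0.16, C6 by 3.70 ± 0.20 and C9 by 2.85 ± 0.16. C4a, the sex-limited protein, was at 10.5, 75.1 and 227 and 2.44, 5.36 and 48.4 (3.46 ± 0.20). The central component C3 was slightly lower in males (-0.36 ± 0.07). Over the 35 tested genes of complement and coagulation 15 were higher in males and 8 in females. The share called, 65.71%, was near the 64.5% of all genes. Only 5, the genes just named other than C3, were at least 2-fold apart. The smaller ones depend on scaling, since median-of-ratios rescaling gave 9 and 11.

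Serpins, inhibitors of serine proteases, took 5.19 ± 0.63% of the summed signal in males and 3.46 ± 0.45% in females (permutation p = 2e-05). Of 33 tested 15 were higher in males and 9 in females (72.73% called, against 64.5% of all genes). After median-of-ratios rescaling these were 11 and 12. Serpina1e, a paralog of alpha-1-antitrypsin, was at 5.71, 2011 and 4120.1 in males and 3.52, 24.9 and 1607 in females (4.99 ± 0.45). Both sexes covered a wide range, and 29 males lay above the highest female. Serpina3k differed by 1.69 ± 0.13, Serpina12 by 2.56 ± 0.29 and Serpina6, the corticosteroid-binding globulin, by -1.60 ± 0.14 in the female direction. A1bg, a plasma glycoprotein of the immunoglobulin family, was among the most female-high genes at 0.157, 0.668 and 9.20 in males and 3.69, 296 and 1456 in females (-8.00 ± 0.31).

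Other large differences fell outside these families. Selenbp2, a selenium-binding protein, was at 2.31, 146 and 535 in males and 0.368, 1.41 and 59.3 in females (5.55 ± 0.36). Capn8, a calpain protease, differed by 4.98 ± 0.21, Susd4, a regulator of complement, by 4.98 ± 0.20, and Nox4, which makes hydrogen peroxide, by 3.00 ± 0.18. Moxd1, a monooxygenase related to dopamine beta-hydroxylase, was at 0, 6.50 and 140.3 in males and 0, 0.0628 and 0.213 in females (4.92 ± 0.54), so that high values occurred in males but not in all of them. In the female direction, Acot3, a peroxisomal acyl-CoA thioesterase, was at 0.0588, 1.01 and 15.8 in males and 5.00, 40.2 and 85.3 in females (-5.04 ± 0.22).

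Bile acid genes differed at both arms of synthesis. Cyp7b1, of the alternative pathway, was at 19.8, 149 and 303 in males and 4.84, 12.2 and 109 in females (3.04 ± 0.20), and Cyp27a1 was modestly male-high (0.51 ± 0.06), as was the 12-alpha-hydroxylase Cyp8b1 (0.80 ± 0.12). Cyp39a1, which hydroxylates 24-hydroxycholesterol, was female-high (-3.36 ± 0.26). Cyp7a1, the rate-limiting enzyme of the classic pathway, was slightly female-high (-0.63 ± 0.22, adjusted p = 0.00847), a call lost in G11L2 mice alone. Slc10a2, the bile acid importer of bile duct and gut, was male-high (1.30 ± 0.19). Of 22 tested bile acid genes 10 were higher in males and 8 in females (81.82% called, against 64.5% of all genes). After median-of-ratios rescaling these were 8 and 11.

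Lists of lipid genes differed in direction, and are read against the 45.3% of all genes that were higher in males and the 19.1% higher in females. Of 23 genes of cholesterol synthesis and uptake 9 were higher in females and 1, Insig2, in males (0.48 ± 0.12), with a list median of -0.16. Srebf2, the pathway's transcription factor, differed by -0.32 ± 0.05. Of 24 genes of fatty acid synthesis 10 were higher in females and 3 in males. Fasn, fatty acid synthase, differed by -0.75 ± 0.15, Fads1, a desaturase, by -0.63 ± 0.06, and Pnpla3, a lipase of lipid droplets, by -2.37 ± 0.31, with 0.0851, 0.358 and 7.28 in males and 0.261, 2.37 and 58.7 in females. Of 30 genes of fatty acid uptake and oxidation 11 were higher in females and 6 in males. Cd36, the fatty acid receptor, was at 3.596, 13.0 and 66.5 in males and 14.2, 50.6 and 92.7 in females (-1.92 ± 0.16), and Acot4 (-1.87 ± 0.11), Vnn1 (-2.25 ± 0.25) and Acot1 (-0.90 ± 0.18), known targets of PPAR-alpha, were female-high as well. Lipid droplet genes went the other way: of 15 tested, 9 were higher in males and none in females, with a median of 0.30, and 6 and none after either rescaling.

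Genes of the unfolded protein response moved together in the male direction. Of 20 tested 15 were higher in males and none in females, where 45.3% and 19.1% of all genes were. The median was 0.55 against 0.106 over all genes, and the counts were 15 and 16 after rescaling. Hspa5, the main chaperone of the endoplasmic reticulum, was at 112, 169 and 399.03 in males and 81.5, 118 and 201 in females (0.68 ± 0.08, adjusted p = 3.45e-12). Hyou1 (0.99 ± 0.10), Sdf2l1 (1.18 ± 0.14) and Creld2 (1.16 ± 0.15), further residents of that compartment, and Asns, asparagine synthetase (1.81 ± 0.24), were among them. The sexes overlapped widely in all 5.

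Genes of growth hormone signalling and its feedback differed unevenly. Ghr, the growth hormone receptor, was slightly male-high (0.39 ± 0.05), and Prlr, the prolactin receptor, was at 11.5, 28.6 and 79.5 in males and 64.3, 105 and 158 in females (-1.82 ± 0.10, adjusted p = 4.3e-31). Egfr, the receptor of epidermal growth factor, was at 40.3, 157 and 454 in males and 5.93, 19.2 and 98.0 in females (2.88 ± 0.17). Stat5b (-0.04 ± 0.05, adjusted p = 0.404), Stat5a (-0.05 ± 0.08, adjusted p = 0.583) and the growth factor Igf1 (-0.02 ± 0.06, adjusted p = 0.823) did not pass the test, although Stat5b and Igf1 were called female-high after either rescaling (-0.16 and -0.18 for Stat5b, -0.13 and -0.15 for Igf1). Socs2, a feedback inhibitor, differed by -0.47 ± 0.20 (adjusted p = 0.0293), a call lost in each generation label alone. Of the 21 tested genes of this list 5 were higher in males and 9 in females (66.67% called, against 64.5% of all genes). After median-of-ratios rescaling these were 3 and 14.

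Among transcription factors, female-high ones differed by most. Cux2 was at 0.0563, 0.146 and 1.18 in males and 0.408, 12.1 and 27.2 in females (-5.56 ± 0.17, adjusted p = 4.91e-52), and the male was the higher one in 0.0833% of pairs of a male and a female. Tox, an HMG-box factor (-2.35 ± 0.14), Trim24, a co-regulator of nuclear receptors (-1.67 ± 0.08), Esr1, the estrogen receptor (-1.27 ± 0.11), and Nr1i3, which encodes CAR (-0.96 ± 0.12), were female-high. Bcl6 was at 1.99, 6.37 and 27.9 in males and 1.18, 2.94 and 14.3 in females (0.92 ± 0.20, adjusted p = 3.48e-05), a male-high gene with much overlap. Onecut1, which encodes HNF6, passed the test in the deposited values (0.51 ± 0.22, adjusted p = 0.0354) but not after either rescaling or in each generation label alone. Small male-high differences were seen for Foxa1 (0.50 ± 0.07) and Hnf4a (0.32 ± 0.05). Of 33 tested factors 18 were higher in males and 7 in females (75.76% called, against 64.5% of all genes). After median-of-ratios rescaling these were 16 and 11. Ccnd1, a cyclin of growth entry, was female-high (-1.74 ± 0.16), and of the clock genes Clock was male-high (0.74 ± 0.08) and Per3 female-high (-1.05 ± 0.19). Their lists were called less often than the 64.5% of all genes. Of 17 cell cycle genes 4 were higher in males and 2 in females (35.29% called). Of 18 core clock genes 5 were higher in males and 4 in females (50% called). Median-of-ratios rescaling gave 1 and 3 for the cell cycle and 5 and 8 for the clock.

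Markers of several cell types other than hepatocytes differed with sex too. Their counts are read against the 45.3% of all genes that were higher in males and the 19.1% higher in females. In whole liver RNA fewer cells of a type and less RNA per cell cannot be told apart. Of 14 Kupffer cell and macrophage markers 13 were higher in females and none in males, with a summed signal of 64.1 to 211.5 (median 130.6) in males and 97.9 to 587.8 (median 169.2) in females. Clec4f, a lectin found on Kupffer cells alone in mouse liver, was at 9.12, 18.8 and 35.5 in males and 15.5, 29.7 and 51.3 in females (-0.62 ± 0.08), Adgre1, the F4/80 antigen, differed by -0.78 ± 0.11, and Marco by -1.76 ± 0.35. The exception was Mpeg1 (0.01 ± 0.13, adjusted p = 0.959). All 8 tested MHC class II genes and 15 of 16 T, NK and B cell markers were higher in females, while Cd4 was higher in males (0.85 ± 0.16). Cd3g, a chain of the T cell receptor complex, differed by -0.80 ± 0.09.

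The sums of the MHC class II genes had a median of 41.3 in males (20.4 to 88.0) and 74.3 in females (24.7 to 179.7), and those of T, NK and B cells 2.23 (1.16 to 3.98) and 3.14 (1.67 to 6.21). Sinusoidal endothelial markers were higher in females in 13 of 15 cases, but their median was only -0.17 and the sums were 148.1 and 168.1, with Oit3 (-0.29 ± 0.05) and Dnase1l3 (-0.30 ± 0.06) as examples. Stellate cell and collagen genes were split, 2 of 15 higher in males and 7 in females: Lrat, which stores vitamin A, was female-high (-0.57 ± 0.12), and the basement membrane collagens Col4a1 (0.38 ± 0.08) and Col4a2 (0.60 ± 0.08) were male-high. Of 8 bile duct markers 3 were higher in males, among them Sox9 (1.05 ± 0.13), and 2 in females, and the median sums were 17.95 and 17.82. Of 5 red cell genes 4 were higher in females, each at least 2-fold, with a list median of -1.255. Their summed signal had a median of 36.05 in males (2.94 to 582.8) and 79.5 in females (4.33 to 371.6), ranges that overlap widely. Of 6 neutrophil markers 3 were higher in females and none in males. Cela1 was the 1 pancreas marker of 4 that was called, higher in males (1.40 ± 0.20). No marker of these lists was at 0 in every mouse of a sex. The part of cell make-up in the differences above was not tested.

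Some large differences lay close together on the chromosomes. Of 1923 stretches of 1 Mb with a tested gene, 308 held a gene at least 2-fold apart, and the 8 richest held 56 of the 455 such genes (12.31%). The 8 stretches were picked by that count, so their share is a description, and clustering was not tested. The Mup cluster filled the first and second of these stretches: chr4:61000001-62000000 held 14, of which 10 were higher in males and 4, all Mup pseudogenes, in females, and chr4:60000001-61000000 held 8, all higher in males. The stretch chr7:26000001-27000000 held 6 female-high genes, all of Cyp2b, Cyp2a and Cyp2g1. Other stretches mixed directions between close copies: 2 male-high and 5 female-high genes in the Cyp2c cluster of chr19:39000001-40000000, 2 and 3 in the Cyp4a cluster of chr4:115000001-116000000, and 1 and 4 in the Cyp3a cluster of chr5:145000001-146000000. At chr12:103000001-104000000, 5 were male-high, Serpina1c and Serpina1e among them, and 1, Serpina6, was female-high. Copies that share reads are counted as separate genes here.

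The mice of one sex also differed from each other more for some genes than those of the other. The spread of log2 signal about the sex's median differed in 304 genes (2.2% of those tested), and it was wider in males for 247 and wider in females for 57. Of the 247 genes, 53 were also at least 2-fold higher in males and 45 at least 2-fold higher in females. Slc22a26 had a log2 SD of 2.46 in males and 0.41 in females (adjusted p = 2.87e-12), with 0.05, 2.74 and 42.0 in males against 26.8, 55.9 and 93.6 in females. A few males reached the female range and most were far below it. Cyp2a4 had the same pattern (2.42 and 0.59, adjusted p = 1.82e-08).

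Genes on in some males only were a second kind. Obp2a (2.60 and 0.27), Moxd1 (3.78 and 0.56) and Tff3, a mucosal trefoil peptide (2.78 and 0.53), were near 0 in females and ran over a wide range in males. Tff3 was at 0, 0.415 and 31.1 in males and 0, 0.0157 and 0.328 in females. Low levels limit the spread that can be seen in females for these genes. Kcnk1, a potassium channel (1.59 and 0.37), and Aatk, a kinase (1.07 and 0.32), followed the same order, and Gstp1, which is well above the pseudocount in every mouse, had 0.78 and 0.28 (adjusted p = 1.22e-09).

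The reverse, even in males and scattered in females, was seen in the 57 genes, of which 16 were at least 2-fold higher in males and 23 at least 2-fold higher in females. Among the male-high ones, Cyp2d9 had a log2 SD of 0.42 in males and 1.46 in females (adjusted p = 7.12e-08), C8a 0.30 and 0.80, Slco1a1 0.43 and 1.88, Serpina3k 0.39 and 0.89, and Cyp3a11 0.51 and 1.55. Among the female-high ones, Krt20, a keratin, was at 0, 0.0185 and 0.695 in males and 0, 0.274 and 5.60 in females, of which 10 were listed at 0. Col4a3 (0.54 and 1.49), a collagen chain of basement membranes, and Sult2a4 (0.41 and 1.78) were female-high too, and their low male levels limit the spread that can be seen in males.

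**Figure D4:**
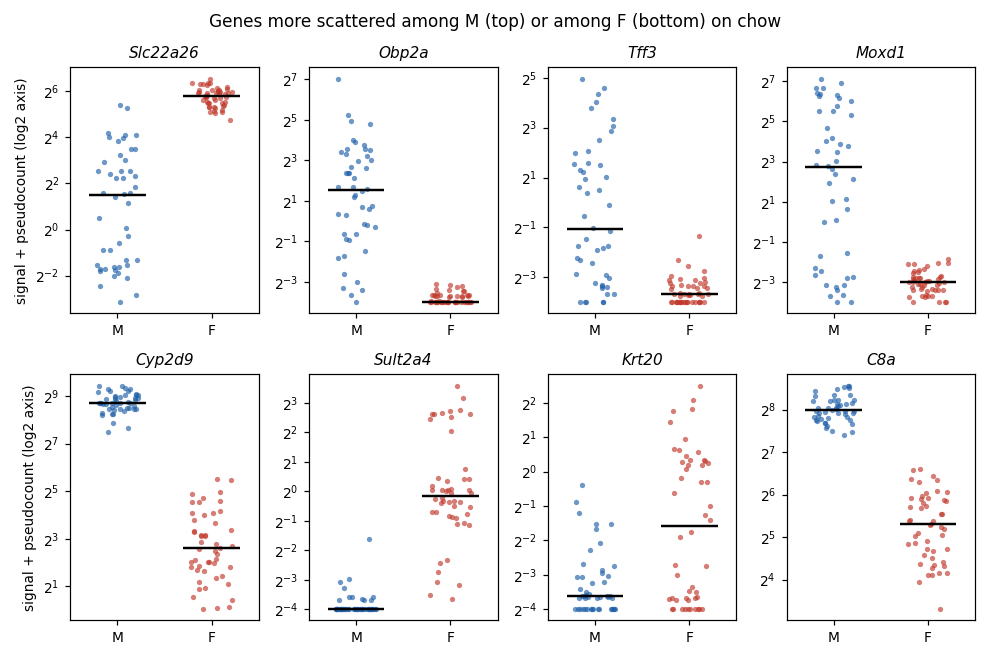
Signal of 8 genes in each chow mouse (48 males, 50 females) on a log2 axis after adding the pseudocount; a point is a mouse, the bar is the median, and points at the lower edge are mice listed at 0 or near it. Slc22a26, Obp2a, Tff3 and Moxd1 are scattered in males, and Cyp2d9, Sult2a4, Krt20 and C8a in females.

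Within a sex, the 2 female-type markers were correlated. Across the 50 females the log2 signals of Cyp3a41a and Sult2a1 had Pearson's r = 0.572 (permutation p = 4e-05, adjusted over 12 pairs 0.00048) and Spearman's rho = 0.501 (p = 0.00028). Without the 2 females farthest from the median of Cyp3a41a r was 0.573, and it was 0.605 in G11L1 and 0.530 in G11L2. In males, Cyp4a12a and Hsd3b5 had r = 0.493 (permutation p = 0.001, adjusted 0.006) and rho = 0.443. Without the 2 males farthest from the median of Cyp4a12a r was 0.486. These 2 did not include the male of lowest Hsd3b5 (0.265, with Cyp4a12a at 98.8), whose part in r was not tested. By label r was 0.112 in the 23 G11L1 males and 0.567 in the 25 G11L2 males, so the relation did not hold within both labels. In females Sult2a1 was negatively correlated with the male-type genes, with r = -0.390 for Hsd3b5 (permutation p = 0.00678, adjusted 0.0271, rho = -0.351) and -0.376 for Cyp4a12a (p = 0.0134, adjusted 0.0401, rho = -0.341). Without the 2 females farthest from the median of Hsd3b5 and of Cyp4a12a, respectively, these were -0.285 and -0.259. For Cyp4a12a r was -0.0661 in G11L1 and -0.648 in G11L2, and for Hsd3b5 -0.567 and -0.226. In males Cyp3a41a and Sult2a1 had rho = 0.440 (adjusted 0.0072) but r = 0.296 (adjusted 0.0932).

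The sex difference on chow was set beside that of the 94 other mice on the high fat diet. Of the 8914 genes called on chow, 5751 were called in the same direction on high fat, which is 64.5% of the chow list and 83% of the 6931 called there, and 52 were called in opposite directions. Of 455 genes at least 2-fold apart on chow, 321 were so on high fat in the same direction (70.5%, and 79.3% of those so far apart there), and none in the opposite direction. The difference itself differed between diets in 1173 genes (8.48% of those tested), a count that fell to 583 after median-of-ratios rescaling. Of the 79 such genes that were at least 2-fold apart on chow, 67 had a smaller difference on high fat, though the limit of 2-fold was set on chow values.

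The difference between diets was called for 1 of the 4 markers. Cyp4a12a differed by 7.71 ± 0.24 on high fat, Hsd3b5 by 6.31 ± 0.33 and Sult2a1 by -6.84 ± 0.29, and the change was not called for these 3 (adjusted p = 0.99, 0.844 and 0.302). It was called for Cyp3a41a, whose difference was -7.11 ± 0.20 on high fat, smaller by 0.89 ± 0.28 (adjusted p = 0.0312), with a female mean of 812 ± 344 on chow and 456 ± 247 on high fat.

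Cyp3a11 and Csad lost their sex difference. Cyp3a11 was at 984 ± 321 in males and 309 ± 268 in females on chow (mean ± SD), and at 557 ± 309 and 593 ± 228 on high fat, where the difference of -0.18 ± 0.20 was not called (adjusted p = 0.485). The change of the difference was -2.43 ± 0.28 (adjusted p = 2.64e-11). Csad, the enzyme that leads to taurine, was at 42.6 ± 33.1 and 8.41 ± 5.22 on chow and 9.67 ± 6.60 and 9.73 ± 10.2 on high fat, a change of -2.12 ± 0.27 (adjusted p = 1.2e-09). The female means of Csad were alike and the male mean was lower on high fat. Sult1e1 did so in the other direction: its male mean was 0.119 ± 0.218 on chow and 2.90 ± 5.02 on high fat against 5.97 ± 7.31 and 3.77 ± 6.65 in females, and the difference went from -4.30 ± 0.31 to -0.72 ± 0.38.

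Other genes kept a smaller difference. Elovl3 went from 5.04 ± 0.17 to 3.44 ± 0.19, Cyp2d9 from 6.06 ± 0.21 to 4.63 ± 0.23, Scp2 from 1.37 ± 0.05 to 0.92 ± 0.05 and A1bg from -8.00 ± 0.31 to -5.79 ± 0.35 (adjusted p of the change 8e-06, 0.00118, 8.81e-06 and 0.00123). Omd, a small proteoglycan, had a larger difference on high fat (4.21 ± 0.14 against 2.91 ± 0.13 on chow), as did Mup1 (5.66 ± 0.31 against 4.33 ± 0.28). Retsat, which saturates retinol, turned from male-high (0.46 ± 0.10) to female-high (-0.51 ± 0.10, adjusted p = 8.35e-06), with male means of 124 ± 49.1 and 94.3 ± 35.2 and female means of 88.8 ± 29.4 and 132 ± 43.0. Ptgds, a prostaglandin synthase of the lipocalin family, turned the other way, from -1.03 ± 0.20 to 0.88 ± 0.20.

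**Figure D5:**
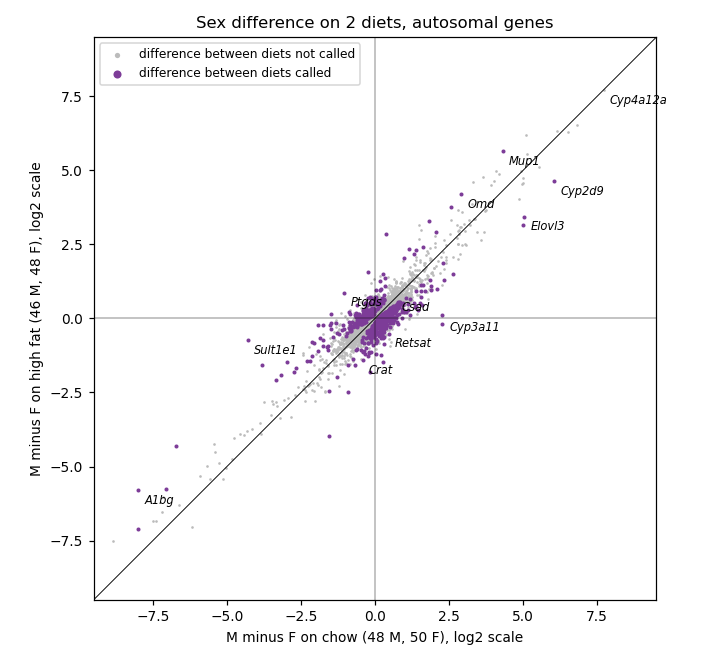
Difference between the sexes (male minus female, log2 scale) on chow, x axis, and on high fat, y axis, with 1 point for each tested autosomal gene, the line of equal differences, and genes whose difference differed between diets in colour. Most large differences lie near the line, Cyp3a11 and Csad lie near 0 on the y axis, and Sult1e1 is much less apart on high fat.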

How the data were processed

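Liver RNA was sequenced as single-end reads of 100 bp from TruSeq mRNA libraries, 2 technical repeats per mouse (per the labels' protocols). The authors deposited 1 table of 21454 genes by 192 mice, whose values are a signal scaled by each mouse's upper quartile. The submitters' processing notes name CASAVA 1.8.0, GRCm38 and mm10, and the aligner, counter and annotation are not given in the sources used here. Whole reads were not recovered, so no count test was run, and precision rests on the number of mice.

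Gene IDs were matched to GENCODE M21 on GRCm38 (21022 matched, 432 did not), and promoters to RefSeq (GRCm38.p6, ATTGAT and TTCNNNGAA searched on both strands of 250 bases). Genes above 0 in at least 48 chow mice with a chow mean of at least the pseudocount were kept. The pseudocount, 0.0629, is 1/100 of the median upper quartile and equals 3.91 reads of the median chow mouse, so differences of low genes are understated. limma 3.58.1 (R 4.3.3, mean-variance trend) fitted sex with the generation label as covariate in the 98 chow mice. Differences between diets came from 4 group means over 192 mice, and spread from absolute deviations of log2 values from the sex median. P-values were adjusted by Benjamini-Hochberg over all tested genes, and a gene was called under 0.05. Family shares and correlations used permutation tests (1e+05 resamples, Python 3.11.15, scipy 1.17.1). The scripts were tested on simulated data. Reads shared between genes were estimated as the share of 100-base transcript words found in another gene. That share was at least 20% in 22 of 171 named genes, Gstp1, Gstp2, Slc22a28 and Sult2a2 among them, so their split from close copies is uncertain.

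Genes were named by rule: the 15 largest differences each way, and the 10 smallest p each way, of called genes whose higher sex had a mean of 10 pseudocounts or more (no predicted genes or pseudogenes). The rule also took the 4 markers, members of gene lists, members of the 8 richest 1-Mb stretches, and 12 genes with the widest gap. It further took 8 genes in each direction for diet, among genes called for sex on chow, and 8 in each direction for spread. Some genes so named are not reported here. The comparison and the lists were chosen with earlier results of these data known. Alternatives were other pseudocounts, filters, scalings, weights, covariates and sets of mice.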

Additional observations from a re-analysis of the deposited data

Results flagged for a closer look

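The sex difference differed between diets, by the test of the difference itself, in 1173 autosomal genes, and 15 of the 16 genes with the smallest p-values (8 in each direction) are given here as the high fat difference minus the chow difference on the log2 scale. Toward females on high fat were Cyp3a11 (-2.43), Csad (-2.12), Akap1 (-0.38), Etnk1 (-0.45), Retsat (-0.97), Zbtb18 (-0.38), Crat (-1.005) and Klhdc3 (-0.37). Toward males on high fat were Ptgds (1.91), Sult1e1 (3.57), Omd (1.30), Stap1 (1.33), Pde1a (1.10), Rgs12 (0.49) and Serpinb9 (0.53). Crat, carnitine acetyltransferase, was more female-high on high fat (-1.41 ± 0.11 against -0.41 ± 0.11 on chow). Akap1, an anchor of protein kinase A on mitochondria, and Klhdc3 turned from slightly male-high to slightly female-high (0.18 ± 0.04 and -0.20 ± 0.04, 0.19 ± 0.03 and -0.18 ± 0.04). On chow, Akap1 was not called after either rescaling, Klhdc3 not after quantile normalization, and Crat not in G11L1 mice alone. The part of body fat, food intake or cell make-up in these values was not tested.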

How the results depend on the processing

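Counts of higher genes moved with scaling: 3747 higher in males and 4096 in females after median-of-ratios rescaling, against 6270 and 2644, while 4272 and 3552 were called after quantile normalization. A filter at 10 pseudocounts left fewer genes to test and 1644 higher in females. A pseudocount 10 times larger left 248 genes at least 2-fold apart, against 455, and gave 522 genes of differing spread, against 304. The count of genes whose sexes do not overlap was 71 in G11L1 mice and 35 in G11L2 mice, which have fewer mice each. The count of differences between diets was 583 with median-of-ratios factors and 600 with quantile normalization. The other alternatives kept these counts within 1.5 times.

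Cyp2c29, not called in the deposited values, was -0.34 and called after quantile normalization, a change of sign. Leaving out the 6 mice of high pancreas transcripts was chosen after seeing the data. Of 3240 values of the 171 named genes under the alternatives, 3205 kept their direction and side of the threshold. The calls of Mup2, Alb, Cyp7a1, Cyp2b10, Cyp2d26, Onecut1, Socs2, Alas1, Akap1, Crat and Klhdc3 were lost in 29 of them, mostly with the mice of 1 generation label (fewer samples) or another scaling. Igf1 and Stat5b (either scaling) and Cyp2e1 (quantile normalization) were newly called in 5.

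With the mouse number as a replicate block, 6228 genes were higher in males and 2638 in females, and 8724 of the 8914 called genes remained called. Whether the numbers pair the mice was not tested. Over 48 pairs of 1 male and 1 female, correlations of deviations from the sex means ran from -0.0708 to 0.271 (median 0.0181). In 5 pairs the correlation was over 0.1, and 4 males were closest to the female of their number. Genes of few reads, where the pseudocount is large beside the signal, limit what folds can be read.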
